A study of Arabidopsis thaliana with 36 samples.

Results

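Whole seedlings of hda9-1 were compared directly with whole seedlings of pif4-2, both grown at 22 °C and harvested at an age of 7 days. All genes with a normalised count of at least 10 in at least 3 of the 6 libraries were taken, which gave 20711 of the 33540 genes in the files. Both lines are Arabidopsis thaliana mutants in the Col-0 background, known as T-DNA insertion alleles, and each gene is represented by 1 allele. The hda9-1 group (3 libraries), the pif4-2 group (3 libraries) and wild-type Col-0 seedlings (WT, 3 libraries) shared their growth conditions, which were 8 h of light at about 100 µmol per square metre and second and 16 h of dark on agar medium, with harvest when the lights came on. The same 3 genotypes were also grown at 27 °C to 7 days and at 22 °C to 2 days, and the series holds 36 libraries in 12 groups in all. Per the labels, each library combined RNA of 3 separately harvested batches of more than 50 seedlings, and the p-values below measure the spread between such pooled libraries. The labels do not say whether libraries with the same replicate number share batches. Values are normalised counts, which the authors obtained by scaling the reads of each gene with 1 factor per library, and the 6 libraries held 30199238 to 53075211 reads in genes.

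HDA9 is a histone deacetylase, an enzyme that takes acetyl groups off histone tails. PIF4 is a basic helix-loop-helix transcription factor that binds G-box and related E-box letters, is held back by the photoreceptor phytochrome B, and switches on growth and auxin genes at the end of the night, in shade and in warmth. Both proteins are known to be needed for the elongation of warm-grown seedlings, in which HDA9 acts at the auxin synthesis gene YUC8 before PIF4 binds there.

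Replicate 3 of pif4-2 stood apart from the other 2 pif4-2 libraries. Its log2 values had a Pearson correlation of 0.9824 and 0.9823 across genes with those of its mates, whereas replicates 1 and 2 of pif4-2 had 0.996 with each other and the hda9-1 libraries had 0.9944 to 0.9958. Among the 18172 genes with a mean normalised count of at least 50, 77 were more than 2-fold above the mean of its mates and 264 more than 2-fold below it. In the other 5 libraries the corresponding numbers were 3 to 29 genes above and 3 to 20 below. A ribosomal RNA locus, AT3G41768, which was chosen after its values were seen, had a normalised count of 578 in that library, against 4129 and 3688 in its mates. The main results of the direct comparison are therefore given with all 6 libraries and again without replicate 3 of pif4-2. Differences of pif4-2 from WT include that library throughout. Fold changes refer to log2(normalised count + 1), which understates the change of genes with low counts.

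Of the 20711 genes tested, 3469 (16.7%) were higher in hda9-1 than in pif4-2 and 3311 (16%) were lower, at an adjusted p under 0.05 (limma, Benjamini-Hochberg, all genes). The 6780 called genes were 32.7% of those tested, so the count of any gene group has to be read against this share. Most of these differences were small, since 119 genes (0.575%) rose and 249 genes (1.2%) fell by at least 2-fold. The 3 hda9-1 libraries and the 3 pif4-2 libraries did not overlap at 4341 genes that were higher in hda9-1 (21%) and 4496 that were lower (21.7%), and 6446 genes (31.1%) were both called and free of overlap. Of the tested genes, 89 passed the minimum count through 1 mutant only, with all 3 of its libraries at or above 10 and none of the other's. Such genes had to differ, and 70 of them were called. Those named below are AT2G01422, IAA6, AGL19, MRD1, CYP79F1, BCAT4, DFR, TT19 and COR15A, and the counts of their lists are also given without them. Without replicate 3 of pif4-2 the count was 7163 (34.6%): 5504 genes were called both ways, all in the same direction, 1276 were lost and 1659 were gained. The spread was estimated from all 18 libraries of 7 days. From the 6 compared libraries alone 3702 genes (17.9%) were called, 1900 higher (9.17%) and 1802 lower (8.7%), and 3609 of them were also called with the 18. From the 5 libraries that exclude replicate 3 of pif4-2, 8314 genes (40.1%) were called, 4204 higher (20.3%) and 4110 lower (19.8%).

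Among the gene lists, the shares of members higher in hda9-1 than in pif4-2 were highest for PIF and shade targets (76.5%), carbon starvation (66.7%), auxin response (57.7%), seed reserve mobilisation (47.1%) and the circadian clock (47.1%), against 16.7% of all genes. The shares of members lower in hda9-1 were highest for flavonoid (60%), glucosinolate (53.3%), heat shock (46.2%), cell division (45%) and photosynthesis genes (38.5%), against 16% of all genes. Some of these shares include genes that passed the minimum count through 1 mutant only. Without such genes 4 of 8 flavonoid and 6 of 13 glucosinolate genes fell, and 14 of 25 auxin response genes rose. In whole seedlings, fewer cells of a type and less RNA per cell cannot be told apart. The median log2 difference over all genes tested was −0.01, and −0.02 without replicate 3 of pif4-2.

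**Figure D1:**
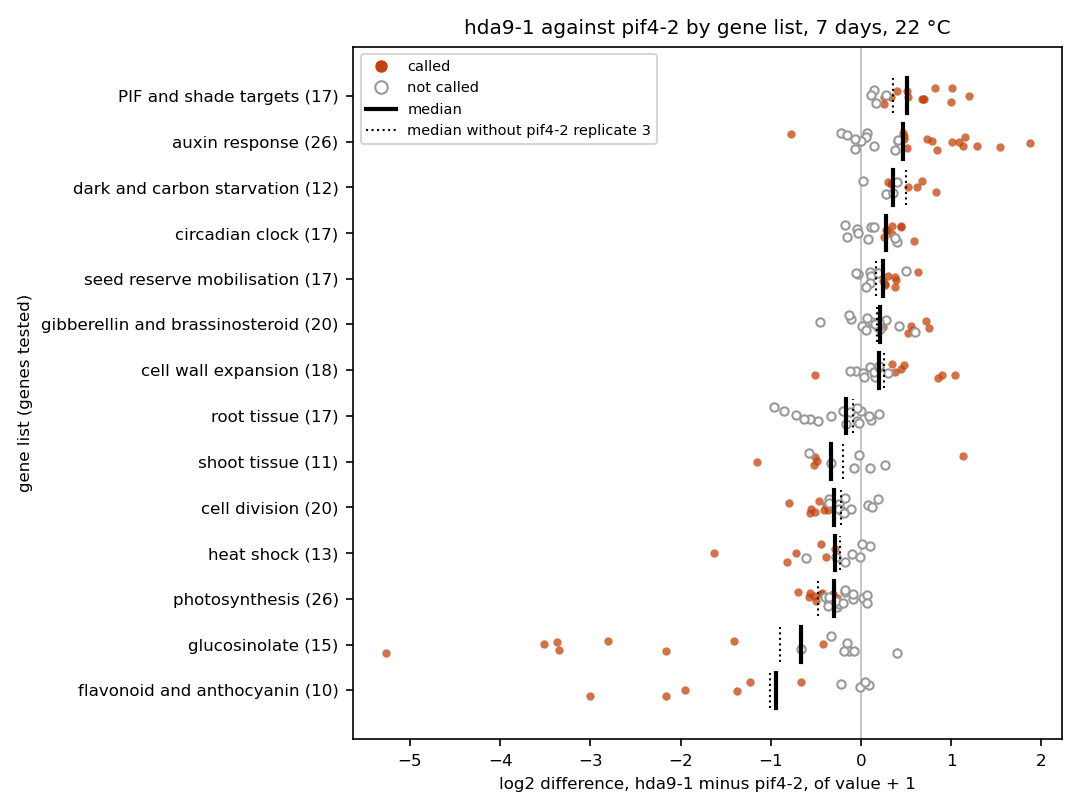
Log2 difference, hda9-1 minus pif4-2, of normalised count + 1 for each tested member of 14 gene lists (number tested in parentheses); filled points were called, open points were not, solid bars are medians and dotted bars the medians without replicate 3 of pif4-2. The median of the 17 PIF and shade targets was 0.51, that of the 15 glucosinolate genes −0.67 and that of the 10 flavonoid genes −0.95, with the last 2 at −0.42 and −0.44 without the genes that passed the minimum count through pif4-2 only.

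HDA9 itself was low in hda9-1. Its normalised counts were 68.7, 55.5 and 47.6 in hda9-1, against 547, 543 and 829 in pif4-2 and a mean of 509 in WT. The 3 libraries labelled as the hda9-1 mutant lay far below all others, and replicate 3 of pif4-2 was the highest. HDA9 was 10.9-fold lower in hda9-1 than in pif4-2 (log2 difference −3.45 ± 0.14 SE, adjusted p = 3.65e-11, limma with Benjamini-Hochberg), and −3.24 without replicate 3 of pif4-2.

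The PIF4 locus gave no such separation. PIF4 had 2081, 2188 and 2188 normalised counts in hda9-1, against 2041, 2111.5 and 2750.0 in pif4-2, and a WT mean of 3604. The mutants overlapped, and both lay below WT. The log2 difference between hda9-1 and pif4-2 was −0.0835 ± 0.0873 (SE, adjusted p = 0.494, limma with Benjamini-Hochberg), and it was 0.0517 without replicate 3 of pif4-2, on the other side of 0. Against WT, PIF4 fell by 0.74 on the log2 scale in hda9-1 and by 0.66 in pif4-2. Reads were counted over the whole locus and the place of the insertion is not given in the sources used here, so the level of PIF4 does not check the pif4-2 label.

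**Figure D2:**
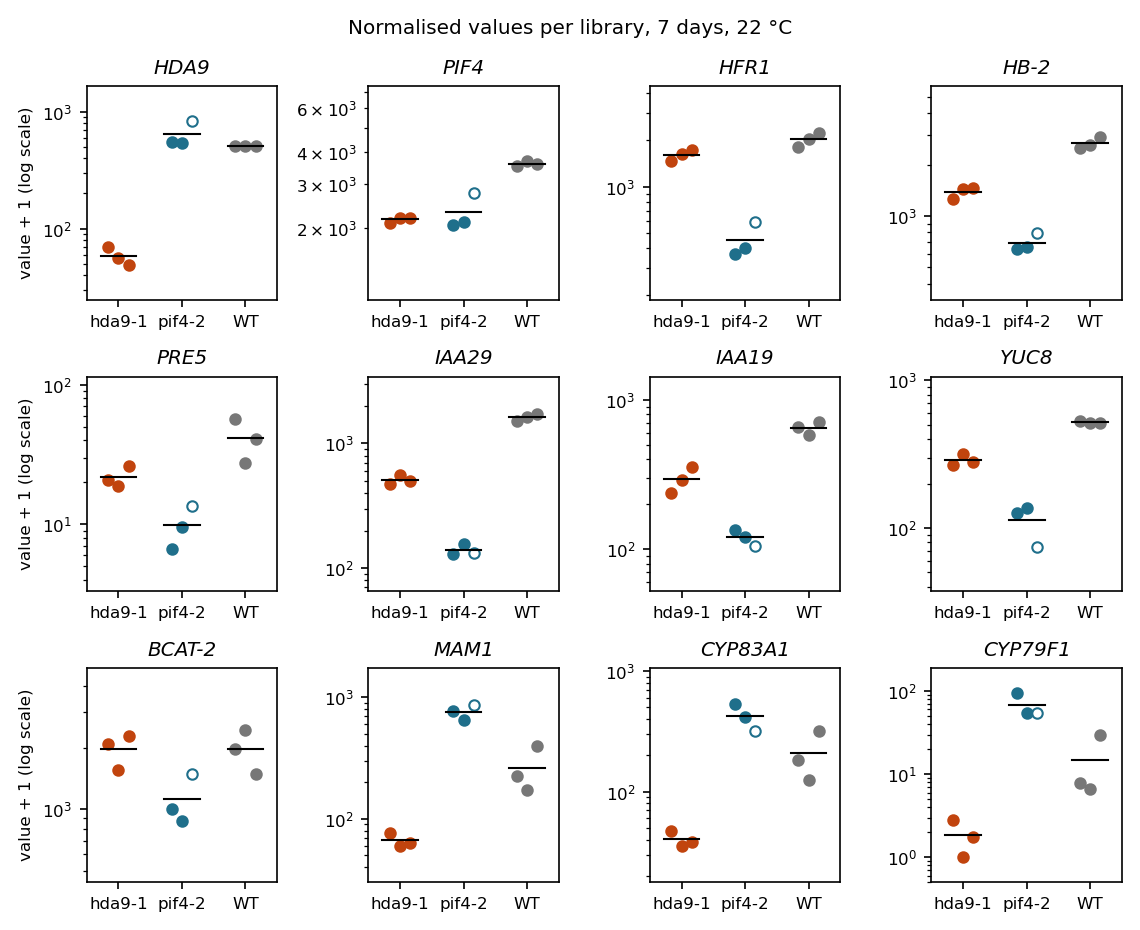
Normalised count + 1 (log axis) of 12 genes in each library of hda9-1, pif4-2 and WT at 7 days and 22 °C; horizontal bars are means of 3 libraries and the open circle is replicate 3 of pif4-2. HDA9 lay between 47.6 and 68.7 in hda9-1, PIF4 overlapped between the mutants, HFR1 to YUC8 were higher in hda9-1 than in pif4-2, and MAM1, CYP83A1 and CYP79F1 were lower.

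PIF and shade target genes were higher in hda9-1 than in pif4-2. Of 17 tested, 13 rose, 0 fell and 4 were not called, with a median log2 difference of 0.51. Without replicate 3 of pif4-2 the count was again 13 and the median 0.36, and the range over leaving out each of the 6 libraries was 10 to 13. The 6 libraries on their own called 8. PAR1 and IBH1, both among the targets that rose, lie close to the mutated PIF4 locus on chromosome 2. Linkage of these genes to that locus was not tested. HB-2 (AT4G16780, also known as ATHB2), a homeodomain transcription factor induced by shade, had 1259.5, 1442 and 1450.1 normalised counts in hda9-1, against 637, 656 and 790.5 in pif4-2. All 3 hda9-1 libraries were above all 3 pif4-2 libraries. HB-2 was 2.00-fold higher (log2 difference 1.00 ± 0.10 SE, adjusted p = 2.15e-06, limma with Benjamini-Hochberg; 1.09 without replicate 3 of pif4-2).

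PRE5, a small helix-loop-helix protein that promotes cell elongation, had 19.6, 17.7 and 25.3 normalised counts in hda9-1, against 5.60, 8.53 and 12.4 in pif4-2, a log2 difference of 1.196 ± 0.31 (SE). ST2A, a sulfotransferase that acts on hydroxyjasmonate, had 520.4, 524 and 664 in hda9-1, against 278, 254 and 314 in pif4-2, a log2 difference of 1.01 ± 0.16 (SE). Neither gene had overlapping groups, and both kept their call without each library in turn. XTH15, a xyloglucan-modifying cell wall enzyme whose locus overlaps a neighbour, was called at 0.70 with all libraries and had an adjusted p of 0.11 without replicate 3 of pif4-2 (0.55, limma with Benjamini-Hochberg). The XTH15 call was also lost without replicate 1 of pif4-2 (0.71) and without replicate 1, 2 or 3 of hda9-1 (0.74, 0.69 and 0.66). It was lost with edgeR (0.66) and DESeq2 (0.68) as well. PIL1, a relative of the PIFs induced by shade, was called at 0.82 although its libraries overlapped. Its call was lost without replicate 1 of pif4-2 (0.74), without replicate 2 of pif4-2 (0.58) and without replicate 3 of hda9-1 (0.69).

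Beside the PIF targets, 20 genes of PIF and light signalling were tested, of which 7 rose and 2 fell (median 0.15). Without replicate 3 of pif4-2, 7 rose and 1 fell. The number that fell was 5 without replicate 2 of pif4-2 and 1 without replicate 2 of hda9-1. HFR1, an atypical helix-loop-helix protein that binds PIFs and keeps them off DNA, had the largest difference. It had 1461, 1629.8 and 1712 normalised counts in hda9-1, against 369, 403 and 589 in pif4-2, and a WT mean of 2016. The hda9-1 libraries were all near the WT level and the pif4-2 libraries all far below it. HFR1 was 3.59-fold higher in hda9-1 than in pif4-2 (log2 difference 1.85 ± 0.13 SE, adjusted p = 5.58e-08, limma with Benjamini-Hochberg), and 2.05 without replicate 3 of pif4-2.

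PHYA, PHYB and CRY2, which encode photoreceptors, were also called higher, by less than HFR1. PHYA, the far-red light receptor phytochrome A, averaged 15242 ± 887 normalised counts in hda9-1 and 9269.7 ± 578 in pif4-2 (SD, n = 3 each), a log2 difference of 0.72. PHYB, the receptor that restrains PIF4, averaged 5307 ± 209 in hda9-1 and 3567 ± 384 in pif4-2 (SD, n = 3 each), a log2 difference of 0.58. CRY2, a blue light receptor, rose by 0.29. PIF7, a shade-responsive PIF whose locus overlaps a neighbour, went the other way, with 344 ± 31.2 in hda9-1 and 511 ± 60.2 in pif4-2 (SD, n = 3 each), a log2 difference of −0.57. These 4 calls were kept without each library in turn.

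Auxin-responsive genes were also higher in hda9-1 than in pif4-2. Of 26 tested, 15 rose, 1 fell and 10 were not called, with a median log2 difference of 0.47, and without replicate 3 of pif4-2 the counts were 16 and 1 with a median of 0.46. Without IAA6, which passed the minimum count through hda9-1 only, 14 of 25 rose and 1 fell. IAA29, an Aux/IAA repressor that is a known PIF4 target, had 469, 562 and 495 normalised counts in hda9-1, against 129, 155 and 131 in pif4-2. The groups lay far apart, and replicate 3 of pif4-2 fell between its mates. IAA29 was 3.66-fold higher (log2 difference 1.87 ± 0.10 SE, adjusted p = 1.63e-09, limma with Benjamini-Hochberg).

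IAA19, an Aux/IAA repressor involved in hypocotyl growth, had 237, 288 and 354 normalised counts in hda9-1, against 134, 119 and 103 in pif4-2, a log2 difference of 1.28 ± 0.16 (SE). Its close relative IAA6 had 15.2, 18.9 and 21.5 in hda9-1, against 6.40, 5.69 and 4.98 in pif4-2, a log2 difference of 1.54 ± 0.25 (SE). The mutants did not overlap at IAA19. At IAA6 the minimum count, passed through hda9-1 only, left no overlap possible. SAUR9 rose by 1.13 and SAUR19 by 1.15, both small auxin-induced proteins that promote cell expansion. SAUR19 was 0.74 without replicate 3 of pif4-2. SAUR19 to SAUR24 lie close together and have near-identical sequences, so reads may be split among them, and of the 6 genes only SAUR20 was not called. SAUR15 was the 1 member that fell (−0.77), and that call was lost without replicate 3 of hda9-1.

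The upstream sequences of IAA19 and IAA6 are shown because both genes are PIF-responsive, rose by similar amounts and belong to 1 gene pair, and that of YUC8 because it is the auxin synthesis gene at which HDA9 and PIF4 are known to act. Each is the 300 bases before the annotated gene start in the RefSeq annotation of TAIR10.1, printed 5′ to 3′ on the strand of the gene, with the letters CACGTG (G-box) and CACATG or CATGTG (E-box, which are each other's reverse complement, so both strands are covered) in capitals. IAA19 is at chr3:5263701-5264000 (+ strand), IAA6 at chr1:19673653-19673952 (− strand) and YUC8 at chr4:14192269-14192568 (+ strand).
IAA19: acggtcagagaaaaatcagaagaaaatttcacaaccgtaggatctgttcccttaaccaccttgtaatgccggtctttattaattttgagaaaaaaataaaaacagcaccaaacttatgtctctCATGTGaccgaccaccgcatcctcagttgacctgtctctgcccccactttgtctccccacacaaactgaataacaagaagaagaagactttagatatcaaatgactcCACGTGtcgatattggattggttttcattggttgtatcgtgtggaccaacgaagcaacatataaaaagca
IAA6: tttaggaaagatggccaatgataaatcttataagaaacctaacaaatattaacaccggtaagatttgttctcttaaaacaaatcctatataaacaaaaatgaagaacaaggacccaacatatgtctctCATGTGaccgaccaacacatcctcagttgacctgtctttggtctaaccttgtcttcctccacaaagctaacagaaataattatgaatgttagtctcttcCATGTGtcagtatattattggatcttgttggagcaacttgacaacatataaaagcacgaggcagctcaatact
YUC8: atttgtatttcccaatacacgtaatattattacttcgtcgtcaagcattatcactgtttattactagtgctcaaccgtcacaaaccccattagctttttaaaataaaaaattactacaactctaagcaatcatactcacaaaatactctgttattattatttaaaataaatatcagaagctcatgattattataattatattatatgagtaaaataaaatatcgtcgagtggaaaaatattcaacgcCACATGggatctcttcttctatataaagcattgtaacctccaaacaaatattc

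The IAA19 window holds 1 G-box that starts 70 bases before the gene start and 1 E-box that starts 177 bases before it. The IAA6 window holds 2 E-boxes, starting 172 and 73 bases before the gene start, and YUC8 holds 1 at 53 bases. The longest run of letters shared by IAA19 and IAA6 is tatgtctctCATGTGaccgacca, of 23 bases, around the only E-box of IAA19 and the distal E-box of IAA6. Of the 20605 tested genes with a window, 8% held a G-box and 13.1% held an E-box. An E-box was found in 10 of 26 auxin response genes (38.5%) and 5 of 17 PIF and shade targets (29.4%). At a change of at least 2-fold it was in 24 of 119 genes that rose (20.2%) and 37 of 248 that fell (14.9%). It was in 13% of all genes that rose and 13% of all that fell. Of the auxin response genes with an E-box, IAA6, IAA19, SAUR9, SAUR19, SAUR21 and SAUR22 rose, SAUR15 fell, and IAA3, IAA4 and GH3.3 were not called. A G-box was found in 3 of 26 auxin response genes (11.5%) and 0 of 17 PIF and shade targets. It was in 8.4% of genes that rose by at least 2-fold and 11.3% of those that fell by at least 2-fold. These are matches of letters and no measure of binding.

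Of 12 auxin biosynthesis genes, 4 rose and 2 fell (median 0.24), against 3 and 2 without replicate 3 of pif4-2 (median 0.03). The number that fell was 0 without replicate 1 of pif4-2, without replicate 2 of hda9-1 and without replicate 3 of hda9-1. YUC8, a flavin monooxygenase of the last step of auxin synthesis, had 266, 318 and 278 normalised counts in hda9-1, against 126, 136 and 73.4 in pif4-2, and a WT mean of 518. Replicate 3 was the lowest pif4-2 library, and the mutants did not overlap. YUC8 was 2.63-fold higher in hda9-1 than in pif4-2 (log2 difference 1.40 ± 0.16 SE, adjusted p = 6.72e-06, limma with Benjamini-Hochberg), and 1.12 without replicate 3 of pif4-2. YUC9, of the same family, rose by 0.81 and YUC2 by 0.46. YUC5 was called at 0.62, and without replicate 3 of pif4-2 it had 0.43 and an adjusted p of 0.1 (limma with Benjamini-Hochberg). The YUC5 call was also lost without replicate 1 of pif4-2 (0.57) and without replicate 1 or 2 of hda9-1 (0.58 and 0.57).

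Genes of gibberellin and brassinosteroid action and of cell wall loosening were shifted the same way by smaller amounts. Of 20 gibberellin and brassinosteroid genes, 6 rose and 0 fell (median 0.21), and without replicate 3 of pif4-2 7 rose. GA3OX1, the enzyme that makes active gibberellin, had 536, 511 and 527 normalised counts in hda9-1, against 322, 301 and 309 in pif4-2, a log2 difference of 0.75 ± 0.10 (SE). The 2 groups were narrow and separate. CPD, a cytochrome P450 of brassinosteroid synthesis, rose by 0.72, and by 0.47 without replicate 3 of pif4-2. GAI and RGA1, the DELLA repressors of gibberellin response, rose by 0.58 and 0.56, and by 0.30 and 0.33 without that library.

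Of 18 cell wall expansion genes, 7 rose and 1 fell (median 0.20), and without replicate 3 of pif4-2 8 rose and 2 fell. Without replicate 3 of hda9-1, 4 rose. XTH24, a xyloglucan endotransglucosylase, had 6463, 5640.5 and 6946 normalised counts in hda9-1, against 3559, 2408 and 3385 in pif4-2, a log2 difference of 1.04 ± 0.16 (SE). Both mutants varied among themselves, and no library of 1 overlapped the other. XTH33, of the same family, rose by 0.90, and the expansin gene EXPA4 fell by 0.51.

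Genes known to respond to darkness and carbon starvation were higher in hda9-1 than in pif4-2. Of 12 tested, 8 rose, 0 fell and 4 were not called (median 0.35), and without replicate 3 of pif4-2 9 rose (median 0.50). TPS10, of the class of trehalose phosphate synthase proteins that respond to sugar state, had 6386, 6708 and 6718 normalised counts in hda9-1, against 4045.5, 4139.5 and 4692 in pif4-2, a log2 difference of 0.62 ± 0.06 (SE). BCAT-2, a branched-chain amino acid aminotransferase, had 2074.5, 1547 and 2278 in hda9-1, against 1001, 875 and 1491 in pif4-2, a log2 difference of 0.83 ± 0.20 (SE). TPS10 was tight within each mutant, whereas BCAT-2 varied, its highest pif4-2 library, replicate 3, lying just below its lowest hda9-1 library. BCAT-2 was 1.05 without that library. BGAL4, a beta-galactosidase, rose by 0.68, and TPS9 and TPS8 rose by 0.52 and 0.35. The loci of BCAT-2 and BGAL4 overlap neighbours.

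Of 17 seed reserve mobilisation genes, 8 rose and 0 fell (median 0.25), with the same counts without replicate 3 of pif4-2 (median 0.17). ACX1, an acyl-CoA oxidase of fatty acid breakdown in peroxisomes, had 8904, 9636 and 8718 normalised counts in hda9-1, against 5932, 6202 and 5494 in pif4-2, a log2 difference of 0.63 ± 0.09 (SE). SDP1, the lipase that starts oil breakdown in seedlings, rose by 0.39, ACX4 by 0.38 and PCK1, which makes the precursor of sugar from stored oil, by 0.37. The 2 mutants did not overlap at any of these 4 genes. Of 14 senescence genes, 4 rose and 1 fell (median 0.01). PPH, the enzyme that takes the phytol tail off pheophytin during chlorophyll breakdown, rose by 0.66, and MAX2, an F-box protein of strigolactone and karrikin signalling, by 0.55.

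Of 17 circadian clock genes, 8 rose and 0 fell, with a median of 0.28, and without replicate 3 of pif4-2 the counts were the same with a median of 0.29. All libraries were taken at lights on, so these are levels at 1 time of day. ZTL, an F-box blue light receptor that sets the stability of clock proteins, averaged 2961 ± 11.1 normalised counts in hda9-1 and 1987 ± 294 in pif4-2 (SD, n = 3 each), a log2 difference of 0.59, and 0.46 without replicate 3 of pif4-2. RVE4 and RVE8, morning-phased MYB activators of evening genes, rose by 0.44 and 0.35. LHY, a morning-phased MYB repressor at the core of the clock, averaged 37751 ± 504 in hda9-1 and 29903 ± 3018 in pif4-2 (SD, n = 3 each), a log2 difference of 0.34.

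Among the largest single falls were genes of aliphatic glucosinolate synthesis, the sulfur-rich defence compounds of the Brassicaceae made from methionine. Of 15 glucosinolate genes tested, 8 fell, 0 rose and 7 were not called (median −0.67). Without replicate 3 of pif4-2 9 fell (median −0.90), and the 6 libraries on their own also called 8. CYP79F1 and BCAT4 passed the minimum count through pif4-2 only, and of the other 13 genes 6 fell and 0 rose (median −0.42). MAM1, which starts the chain elongation of methionine, had 74.98, 59.05 and 62.2 normalised counts in hda9-1, against 771, 644 and 869 in pif4-2, and a WT mean of 263. The hda9-1 libraries were all low, the pif4-2 libraries all high, with WT between them. MAM1 was 11.4-fold lower in hda9-1 than in pif4-2 (log2 difference −3.52 ± 0.24 SE, adjusted p = 2.76e-08, limma with Benjamini-Hochberg), and −3.42 without replicate 3 of pif4-2.

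CYP83A1, which acts on the aldoximes of the pathway, had 46.4, 34.2 and 36.8 normalised counts in hda9-1, against 530.1, 414 and 319 in pif4-2, a log2 difference of −3.37 ± 0.28 (SE). CYP79F1, which makes those aldoximes, had 1.79, 0 and 0.768 in hda9-1, against 93.5, 54.0 and 53.5 in pif4-2, and was called. Its hda9-1 values stand for a few reads only, so no fold is given. BCAT4, the aminotransferase that opens the pathway and whose locus overlaps a neighbour, had a log2 difference of −3.35, and CYP79F2, a near copy of CYP79F1 beside it on chromosome 1, had −2.81. IPMI2 (AT2G43100), a subunit of the isomerase of methionine chain elongation that is in no list, fell 9.63-fold. IPMI2 starts at base 17920647 of chromosome 2 and PIF4 at base 17886101, so the gene lies close to the mutated PIF4 locus, and linkage to it was not tested. The same holds for the PIF and shade targets PAR1 and IBH1. The 300 bases before PAR1 are at 17837619 to 17837918 of chromosome 2 and those before IBH1 at 17908707 to 17909006.

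Flavonoid and anthocyanin genes were lower in hda9-1 as well. Of 10 tested, 6 fell and 0 rose (median −0.95), and 5 fell without replicate 3 of pif4-2 (median −1.003). DFR and TT19 passed the minimum count through pif4-2 only, and of the other 8 genes 4 fell and 0 rose (median −0.44), and 3 fell without replicate 3 of pif4-2. DFR, an enzyme of the late anthocyanin pathway, had 5.36, 4.72 and 3.84 normalised counts in hda9-1, against 35.2, 29.4 and 82.2 in pif4-2, and a WT mean of 7.29. The hda9-1 values were near those of WT, and replicate 3 was the highest of the pif4-2 libraries. The log2 difference was −3.01 ± 0.55 (SE), and −2.56 without that library. LDOX, the next enzyme, had a log2 difference of −2.17, TT19, which carries the pigments to the vacuole and whose locus overlaps a neighbour, had −1.95, and FLS1, the flavonol synthase, had −1.37. LDOX and FLS1 were called without each library in turn. DFR and TT19 were too, but the minimum count meant that they had to differ, so their kept calls add no support. MYB111, an activator of flavonol genes, was called at −1.23 and had an adjusted p of 0.0759 (−1.14) without replicate 3 of pif4-2 (limma with Benjamini-Hochberg). The MYB111 call was also lost without replicate 2 of pif4-2 (−1.16) and without replicate 1 or 2 of hda9-1 (−1.22 and −1.04).

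The comparisons of each mutant with WT share the WT libraries, so their values are given side by side and not related to each other. The values of pif4-2 against WT include its replicate 3 and are not given without it. Against WT, 4217 genes (20.4%) were called in hda9-1 and 3738 (18%) in pif4-2. Of the 17 PIF and shade targets, 11 were called lower and 0 higher in hda9-1 (10.3% of all genes fell; median −0.74), and 17 lower and 0 higher in pif4-2 (9.85% of all genes fell; median −1.08). IAA29 fell by 1.67 on the log2 scale below WT in hda9-1 and fell by 3.55 in pif4-2. YUC8 fell by 0.85 in hda9-1 and fell by 2.25 in pif4-2. HFR1 differed from WT by −0.33 in hda9-1, which was not called, and fell by 2.17 in pif4-2.

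In hda9-1 against WT 4 of 15 glucosinolate genes fell and 0 rose (median −0.11), and in pif4-2 against WT 8 rose and 0 fell (8.2% of all genes rose; median 0.44). MAM1 fell by 1.91 in hda9-1 against WT and rose by 1.61 in pif4-2 against WT. Of the 12 carbon starvation genes, hda9-1 had 2 above and 2 below WT, and pif4-2 had 0 above and 9 below WT. The clock genes differed from WT in hda9-1, where 7 of 17 rose (10.1% of all genes rose) and 0 fell, and in pif4-2 0 were called in either direction. Against WT, 1 of 20 gibberellin and brassinosteroid genes rose and 6 fell in hda9-1, and 0 rose and 10 fell in pif4-2. Of 18 cell wall expansion genes, 2 rose and 5 fell in hda9-1, and 1 rose and 10 fell in pif4-2. Of all genes, 10.3% fell in hda9-1 and 9.85% in pif4-2. Unlike most called members of these lists, GA3OX1 and XTH24 rose above WT in hda9-1, by 0.58 and 0.81. In pif4-2 their differences of −0.17 and −0.23 were not called.

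**Figure D3:**
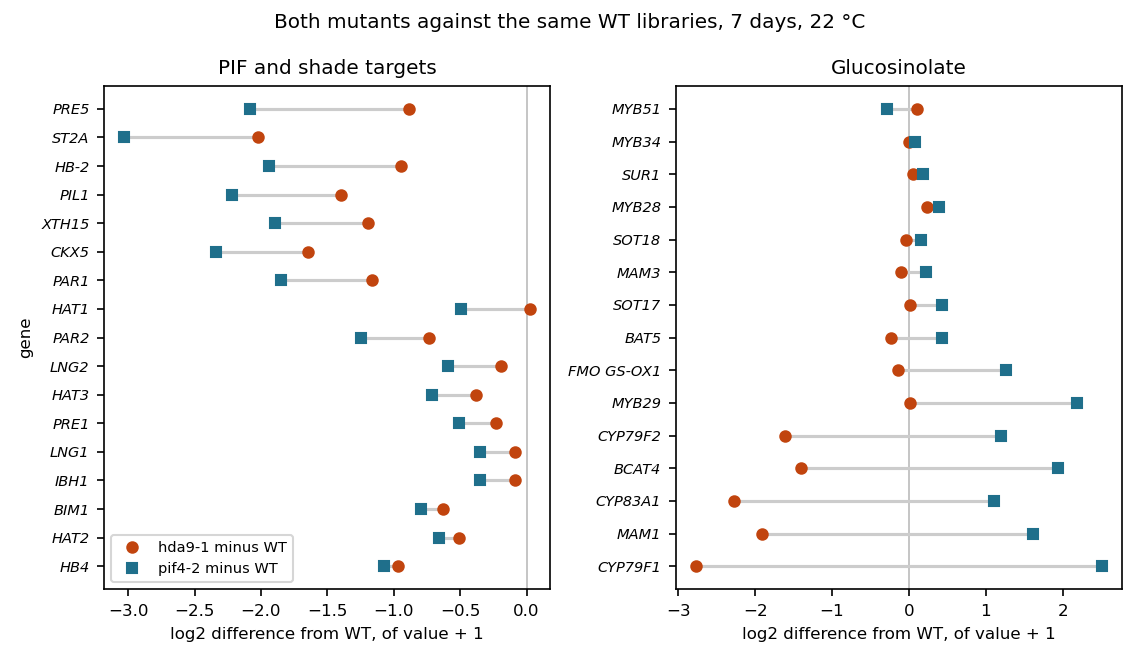
Log2 difference from WT of normalised count + 1 at 7 days and 22 °C in hda9-1 (circles) and pif4-2 (squares) for 17 PIF and shade targets (left) and 15 glucosinolate genes (right); grey lines join the 2 values of a gene, and both mutants are set against the same WT libraries. At the PIF and shade targets hda9-1 lay to the right of pif4-2 at every gene, with medians of −0.74 and −1.08, and at MAM1 the values were −1.91 in hda9-1 and 1.61 in pif4-2, on opposite sides of WT.

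Photosynthesis genes were lower in hda9-1 than in pif4-2, to an extent that depended on replicate 3 of pif4-2. Of 26 tested, 10 fell and 0 rose with all libraries (median −0.30), and all 26 fell without replicate 3 of pif4-2 (median −0.47). Without replicate 1 of pif4-2 or without replicate 2 of pif4-2 6 fell. The 6 libraries on their own called 3 of the 26 lower, in a fit where 8.7% of all genes were lower. The summed normalised count of the 26 genes was 4578835, 4580562 and 4457168 in hda9-1, against 6364672, 6579649 and 4319168 in pif4-2, and 5599303 to 5677769 in WT. Replicates 1 and 2 of pif4-2 were above every hda9-1 library, and replicate 3 was below all of them. The median deviation of replicate 3 from its mates over these genes was −0.74 on the log2 scale.

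PSAD-1, a subunit of photosystem I, was little affected by that library, with 54667, 50448 and 51309 normalised counts in hda9-1, against 76407, 76677 and 77574 in pif4-2. The groups were tight and separate, with a log2 difference of −0.56 ± 0.07 (SE, adjusted p = 1.17e-05, limma with Benjamini-Hochberg). LHCA1, an antenna protein of photosystem I, had a log2 difference of −0.52 with overlapping libraries, and −0.76 without replicate 3 of pif4-2. Its call was lost without replicate 1 of pif4-2 (−0.39) and without replicate 2 of pif4-2 (−0.40). LHCB2.3, an antenna protein of photosystem II whose locus overlaps a neighbour, averaged 32784 ± 1663 in hda9-1 and 53479 ± 8763 in pif4-2 (SD, n = 3 each), a log2 difference of −0.69, and −0.83 without that library. RBCS3B and RBCS1A, small subunits of Rubisco and members of a family of near-identical genes, fell by 0.57 and 0.49. Of 13 chlorophyll synthesis genes, 1 rose and 1 fell. CHLD, a subunit of magnesium chelatase, rose by 0.21 and PORC, which reduces protochlorophyllide in light, fell by 0.38. Both of these loci overlap neighbours.

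**Figure D4:**
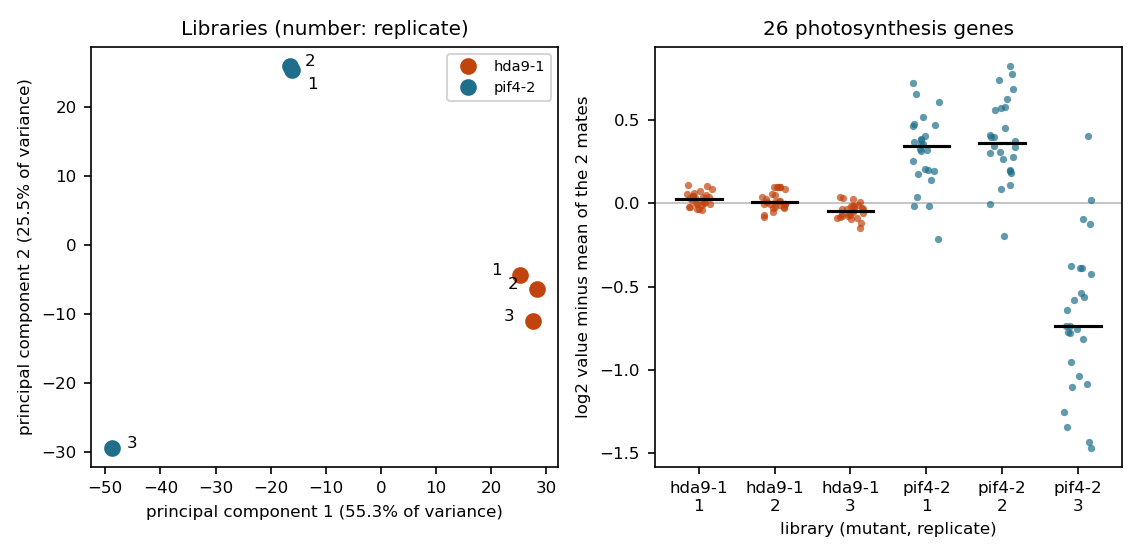
Left, the 6 libraries on the first 2 principal components of their log2 values, with replicate numbers; right, log2 value minus the mean of the 2 mates of the same mutant for 26 photosynthesis genes in each library, with the median as a bar. Replicate 3 of pif4-2 was at −48.7 on component 1 and −29.4 on component 2, away from its mates at −16.1 and −16.4 on component 1 and 25.3 and 25.9 on component 2, and its photosynthesis genes had a median of −0.74.

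Cell division genes were lower in hda9-1 than in pif4-2. Of 20 tested, 9 fell and 0 rose (median −0.30), 8 fell without replicate 3 of pif4-2 (median −0.22), and 5 fell without replicate 2 of hda9-1. HIK, a kinesin of the division plane, had 499, 422 and 464 normalised counts in hda9-1, against 666, 752 and 1031 in pif4-2, a log2 difference of −0.80 ± 0.14 (SE), and −0.62 without replicate 3 of pif4-2. All hda9-1 libraries were below all pif4-2 libraries. AUR1, a mitotic kinase, fell by 0.51 and CDKB1;1, a cyclin-dependent kinase of mitosis, by 0.47. The loci of AUR1 and CDKB1;1 overlap neighbours. Against WT, 2 of the 20 were called in hda9-1, both higher, and 10 in pif4-2, all higher.

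The summed levels of root and of shoot markers were lower in hda9-1 than in pif4-2. The 17 root markers had 0 calls in either direction with limma (median −0.17), and without replicate 3 of pif4-2 1 rose (median −0.09). The 6 libraries on their own called 4 root markers lower. The summed normalised count of the root markers was 7127 to 7263 in hda9-1, against 7293 to 8224 in pif4-2 and 7366 to 7519 in WT, with no marker at 0 in any library. That of the 12 shoot markers was 19150 to 20576 in hda9-1, against 21735 to 24552 in pif4-2 and 23826 to 25282 in WT, also with none at 0. Both sums were lower in every hda9-1 library than in every pif4-2 library, and their part in the other results was not tested. Of 11 shoot markers tested, 1 rose and 4 fell (median −0.33), and 1 rose and 2 fell without replicate 3 of pif4-2.

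STM, a homeodomain protein that keeps the shoot meristem undifferentiated, had 186, 208 and 203 normalised counts in hda9-1, against 101, 85.3 and 85.9 in pif4-2, a log2 difference of 1.13 ± 0.11 (SE). The groups were separate by a wide margin. PDF1, a protein of the epidermis, fell by 0.52, and FAMA, a regulator of guard cell formation, by 0.51. GL1, a MYB protein of leaf hair formation, was called at −1.16, and without replicate 3 of pif4-2 it had −0.71 and an adjusted p of 0.0629 (limma with Benjamini-Hochberg). Seed storage and maturation genes were near their detection limit: of 23 in the list 6 were tested, 0 rose and 2 fell, and their summed normalised count was 301 to 554 in hda9-1, against 528 to 579 in pif4-2 and 883 to 1110 in WT, with 3 to 8 members at 0 per library. RAB18, a dehydrin of the embryo whose locus overlaps a neighbour, fell by 0.76.

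Heat shock genes were lower in hda9-1 than in pif4-2, by a count that depended on the libraries used. Of 13 tested, 6 fell (46.2%, against 16% of all genes) and 0 rose (median −0.28). The number that fell was 4 without replicate 3 of pif4-2, and 3 without replicate 1 of hda9-1 or without replicate 2 of hda9-1. The 6 libraries on their own called 2 lower and 0 higher, in a fit where 8.7% of all genes were lower. HSP17.6A, a small heat shock protein, averaged 18.9 ± 4.47 normalised counts in hda9-1 and 60.7 ± 13.2 in pif4-2 (SD, n = 3 each), a log2 difference of −1.63. HSP90.1, a chaperone, was called at −0.45 and had −0.29 without replicate 3 of pif4-2, with an adjusted p of 0.118 (limma with Benjamini-Hochberg). The HSP90.1 call was also lost without replicate 1 or 2 of hda9-1 (−0.42 and −0.41). Of 11 cold response genes, 3 rose and 1, COR15A, fell. KIN2, a hydrophilic protein induced by cold, rose by 1.00 and COR15A, a chloroplast protein that protects membranes in frost, fell by 1.43 and had passed the minimum count through pif4-2 only. CBF2, the activator of such genes, was called at 0.71 and had 0.34 without replicate 3 of pif4-2, with an adjusted p of 0.24 (limma with Benjamini-Hochberg). The CBF2 call was also lost without replicate 1, 2 or 3 of hda9-1 (0.75, 0.78 and 0.58), and with edgeR (0.61) and DESeq2 (0.62).

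Of 13 abscisic acid genes, 4 rose and 1 fell (median 0.13), and the number that rose was 2 without replicate 1 of pif4-2, without replicate 1 of hda9-1 and without replicate 3 of hda9-1. NCED3, the enzyme of the committed step of abscisic acid synthesis, averaged 609 ± 68.5 normalised counts in hda9-1 and 290.0 ± 25.6 in pif4-2 (SD, n = 3 each), a log2 difference of 1.07. Of 15 jasmonate genes, 0 rose and 3 fell, among them OPR3, a reductase of jasmonate synthesis, by 0.69. Of 11 salicylic acid genes, 1 rose and 3 fell with all libraries, and 1 fell without replicate 1 of hda9-1 or without replicate 2 of hda9-1. ICS1, the main source of salicylic acid precursor, fell by 0.59, and SNC1, an immune receptor, rose by 0.29.

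Of 17 flowering and phase change genes, 4 rose and 5 fell, and without replicate 3 of pif4-2 5 rose and 3 fell. Leaving out replicate 1 of hda9-1 or replicate 3 of hda9-1 also left 3 that fell, and leaving out replicate 2 of hda9-1 left 2. MAF4 and MAF5, neighbouring MADS-box repressors of flowering, fell by 0.76 and 1.18, and AGL19, a MADS-box activator of flowering known to be a target of HDA9, rose by 1.24. Without AGL19, which passed the minimum count through hda9-1 only, 3 rose and 5 fell. SPL15, an age-dependent flowering activator whose locus overlaps a neighbour, was called at −1.03 and had −0.65 and an adjusted p of 0.0516 without replicate 3 of pif4-2 (limma with Benjamini-Hochberg). The SPL15 call was also lost without replicate 2 of hda9-1 (−0.86). Beside HDA9, 15 genes of histone deacetylases and H2A.Z were tested, which with HDA9 gave 2 that rose and 4 that fell. The number that fell was 2 without replicate 2 of hda9-1 or without replicate 3 of hda9-1. HDA8, another deacetylase, rose by 0.45, and HTA9, an H2A.Z histone whose locus overlaps a neighbour, rose by 0.67 and by 0.44 without replicate 3 of pif4-2.

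Calls in the remaining lists went in both directions or were few. Of 13 iron uptake genes, 2 rose and 3 fell, and 0 rose and 3 fell without replicate 3 of pif4-2. NAS4, a nicotianamine synthase, fell by 0.92. Of 15 suberin and wax genes, 1 rose and 1 fell. FAR1 (AT5G22500), a fatty acyl-CoA reductase of suberin synthesis whose locus overlaps a neighbour, rose by 1.02, and CER1, an enzyme of wax alkane synthesis, fell by 0.97. The 12 ethylene genes gave 1 rise, in ACS11, an ACC synthase, by 0.89. The 9 type-A cytokinin response genes gave 1 rise with all libraries and 0 without replicate 3 of pif4-2. The 8 nitrate and phosphate genes gave 0 rises and 1 fall, and the 14 rapid stress and touch genes gave 3 rises and 0 falls, of which SZF1, a zinc finger protein of stress response, was the largest at 0.60.

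The largest single rises and falls, among genes with a mean of at least 50 and no overlap between the mutants, lay mostly outside these lists. AT2G01422, annotated as a non-coding RNA, had the largest rise. It had 101, 83.9 and 123 normalised counts in hda9-1, against 9.59, 5.69 and 0 in pif4-2, and a WT mean of 1452. Both mutants were thus far below WT, pif4-2 the further. AT2G01422 passed the minimum count through hda9-1 only, so it had to differ between the mutants. The log2 difference between hda9-1 and pif4-2 was 4.63 ± 0.72 (SE), 3.603 without replicate 3 of pif4-2 and 5.31 without replicate 1 of pif4-2.

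MRN1, the enzyme that makes the triterpene marneral, had 381, 420.4 and 392 normalised counts in hda9-1, against 4.80, 31.3 and 33.6 in pif4-2, and a WT mean of 33.0. Here the hda9-1 libraries stood far above both other genotypes, and replicate 1 of pif4-2 was well below its mates. The log2 difference was 4.42 ± 0.46 (SE, adjusted p = 2.36e-06, limma with Benjamini-Hochberg), and 3.58 without replicate 1 of pif4-2. ADS4, a lipid desaturase, was 6.87-fold higher in hda9-1 than in pif4-2, at a mean of 167 in hda9-1, 24.5 in pif4-2 and 205 in WT. AGL42, a MADS-box protein, was 4.44-fold higher, at 105 in hda9-1, 23.3 in pif4-2 and 29.4 in WT. The neighbouring loci AT1G33813 and AT1G33817 rose by 2.44 and 2.40 on the log2 scale. Other large rises were AT3G21030 (2.36), the organic cation transporter gene OCT1 (2.01), AT3G29644 (1.94) and AT5G60610 (1.85), and the loci of the last 3 overlap neighbours.

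Among the falls, MRD1, whose locus overlaps neighbours, had 1.79, 8.27 and 6.14 normalised counts in hda9-1, against 114, 94.8 and 113 in pif4-2, and a WT mean of 14.9. The pif4-2 libraries were the high ones. The log2 difference was −4.24 ± 0.38 (SE). MRD1 passed the minimum count through pif4-2 only, so it had to differ between the mutants. AT1G29720 was 6.24-fold lower, at a mean of 110 in hda9-1, 687 in pif4-2 and 153 in WT. AT4G13575 and its neighbour AT4G13572 were 6.45-fold and 5.80-fold lower. PAP85, a cupin related to seed storage proteins, had a log2 difference of −2.93, AT5G33370 of −2.71, RLP6, a receptor-like protein, of −2.54 and AT3G59340 of −2.40. All of the rises and falls in these 3 paragraphs kept their call without each of the 6 libraries in turn. For AT2G01422 and MRD1, which had to differ, this adds no support.

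At 27 °C many of the same genes differed between the mutants. In libraries that share no sample with those at 22 °C, 6276 genes (30.3%) were called, and 3918 of them were also called at 22 °C, which is 57.79% of the calls at 22 °C and 62.43% of those at 27 °C. The direction was the same at 3892 and opposite at 26. Across all 20711 genes the log2 differences had a Pearson correlation of 0.711 and a Spearman correlation of 0.681. Without replicate 3 of pif4-2 at 22 °C the Pearson correlation was 0.739. The 4 groups were in 1 fit and the same WT libraries enter neither difference. At 27 °C, 11 of 17 PIF and shade targets rose (16% of all genes rose), 15 of 26 auxin response genes were higher and 1 lower, and 18 of 26 photosynthesis genes fell (14.3% of all genes fell) with 0 that rose. Other lists had fewer falls than at 22 °C. Of 15 glucosinolate genes 3 fell and 0 rose at 27 °C (median −0.14), against 8 falls at 22 °C. Of 10 flavonoid genes 1 fell and 1 rose (median −0.40), and of 13 heat shock genes 2 fell and 0 rose (median 0.03). Both lists had 6 falls at 22 °C. The difference between the temperatures was called at 1 glucosinolate gene and at 0 flavonoid or heat shock genes. HFR1 had a log2 difference of 2.07 at 27 °C.

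The difference between the 2 temperatures was itself called at 77 genes (0.372%), 40 with a positive value of 22 °C minus 27 °C (0.193%) and 37 with a negative one (0.179%). The count was 251 without replicate 3 of pif4-2 at 22 °C and 18 without replicate 3 of hda9-1 at 22 °C. ESM1, a modifier of glucosinolate breakdown, had a log2 difference between the mutants of 1.38 at 22 °C and 2.76 at 27 °C. NAS2, a nicotianamine synthase, had −0.72 at 22 °C and 1.79 at 27 °C. Its call at 22 °C was lost without replicate 1 or 3 of pif4-2 (−0.75 and −0.55). That call was also lost without replicate 1, 2 or 3 of hda9-1 (−0.74, −0.70 and −0.70) and with no filter on low values. MAM1 had −3.52 at 22 °C and −1.63 at 27 °C, and the call of that difference was lost without 4 of the 12 libraries, among them replicates 2 and 3 of hda9-1 at 22 °C (−1.82 and −1.86). YUC8 had 1.40 at 22 °C and 0.40 at 27 °C, and their difference was not called.

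At an age of 2 days, 9079 genes (43.8%) were called, and 4026 were called at both ages, which is 59.38% of the calls at 7 days and 44.34% of those at 2 days. The direction was the same at 3675 and opposite at 351, and across the 20711 genes the Pearson correlation was 0.436 and the Spearman correlation 0.47. Without replicate 3 of pif4-2 at 7 days the Pearson correlation was 0.471. The difference between the ages was called at 3235 genes (15.6%), 1397 with a positive value of 7 days minus 2 days (6.75%) and 1838 with a negative one (8.87%). The count of 3235 became 2693 without replicate 3 of pif4-2 at 7 days. It was 2025 without replicate 1 and 1985 without replicate 2 of pif4-2 at 2 days, and 2038 without replicate 2 and 2041 without replicate 3 of hda9-1 at 2 days. PIF and shade targets were on the same side at both ages, with 11 of 17 that rose (24.3% of all genes rose) and 0 that fell at 2 days. Photosynthesis genes were on opposite sides, with 10 of 26 lower in hda9-1 than in pif4-2 and 0 higher at 7 days, against 0 lower and 17 higher at 2 days, and the difference between ages was called at 15 of them. LHCA1 had a log2 difference of −0.52 at 7 days and 0.60 at 2 days.

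PIF7 likewise had −0.57 at 7 days and 1.96 at 2 days, with a called difference. Suberin and wax genes had 1 of 15 higher and 1 lower in hda9-1 than in pif4-2 at 7 days, against 12 higher and 0 lower at 2 days, and the difference between ages was called at 11. GPAT5, an acyltransferase of suberin synthesis, had 0.22 at 7 days and 4.62 at 2 days, and ABCG6, a transporter of suberin precursors, had 0.32 at 7 days and 5.04 at 2 days. Of the 20 cell division genes 9 fell at 7 days and 16 at 2 days (19.5% of all genes fell at 2 days). MAM1, which separated the mutants widely at 7 days, had 0.03 at 2 days, whereas HDA9 was low in hda9-1 at both ages (−3.45 at 7 days, −4.33 at 2 days).

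**Figure D5:**
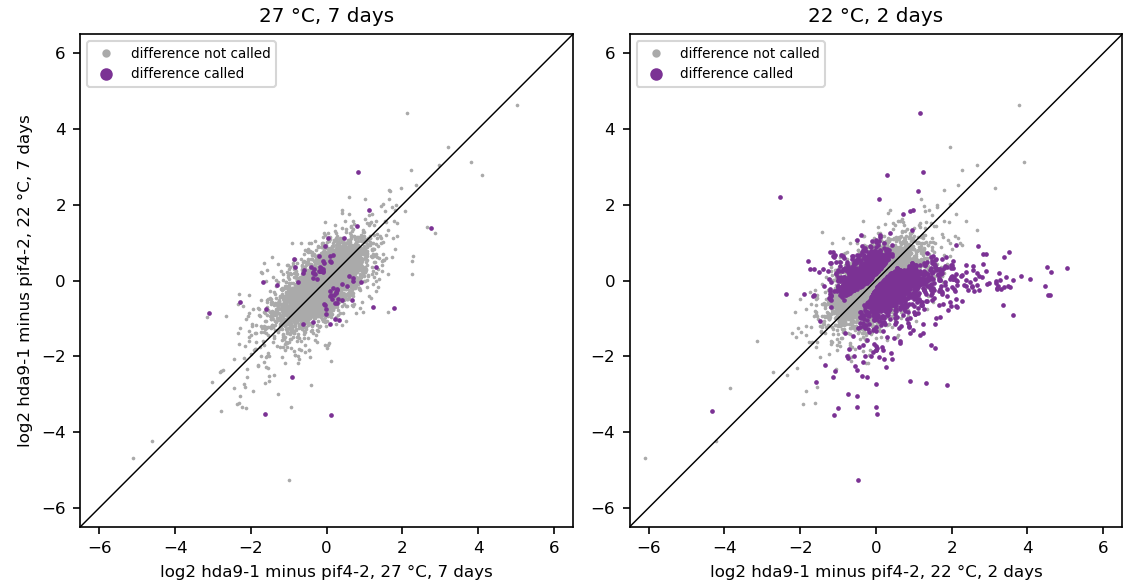
Log2 difference, hda9-1 minus pif4-2, at 22 °C and 7 days (vertical) against the same difference at 27 °C and 7 days (left) and at 22 °C and 2 days (right) for 20711 genes; purple points are genes whose difference between the conditions was called and the line marks equal values. At 27 °C 77 genes were called and most points lay along the line, and at 2 days 3235 were called, many with a large value at 2 days and a value near 0 at 7 days.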

How the data were processed

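RNA of whole seedlings was sequenced with Illumina TruSeq libraries and single reads of 50 bp, per the labels' protocols. The build TAIR10 and the tools HTSeq, TopHat2, Bowtie, FastQC and DESeq are listed in the submitters' processing notes. The strand setting, and which libraries were scaled together, are not given in the sources used here. The deposited values are a signal that the authors made by dividing each gene's read count by 1 size factor per library. Whole reads were recovered from 100% of the values within 0.01 of a whole number. In the 6 libraries 6.63 to 7.93% of reads were not uniquely placed, 1.03 to 1.23% were ambiguous between genes and 0.649 to 0.719% lay outside genes, and these categories were left out of all tests.

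Groups were taken from the labels. Differences of log2(value + 1) were tested by limma-trend (limma 3.58.1, R 4.3.3) with 1 mean for each of the 6 groups of 7 days (18 libraries), and for comparisons between ages with all 36 libraries. A gene entered where 3 or more of the 6 compared libraries had a value of 10 or above, and it was called below a Benjamini-Hochberg adjusted p of 0.05, with adjustment over every gene that entered. The test was run on simulated data beforehand. Names and positions came from the RefSeq annotation of TAIR10.1, which matched 32835 loci. Alternative settings used TMM factors, a pseudocount of 8, no filter, a minimum of 50, the replicate number as a block, count tests on the recovered reads with DESeq2 1.42.0 and edgeR 4.0.16, library quality weights, only the compared libraries, and each library left out in turn. Gene lists, of which 526 of 537 entries had a matching name and locus, and all comparisons were chosen with earlier results of these data known. Named genes are HDA9, PIF4, the 12 called genes that rose most and the 12 that fell most with a mean of 50 or more and no overlap between the mutants, up to 5 called members per list by size of change, and, for differences between temperatures and ages, the 6 largest in each direction. A gene outside this rule, such as SAUR15, SAUR20 to SAUR24 and AT3G41768, was chosen after its values were seen.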

Additional observations from a re-analysis of the deposited data

Results flagged for a closer look

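The difference between hda9-1 and pif4-2 was itself compared between 22 and 27 °C at 7 days, with limma and Benjamini-Hochberg adjustment, and it differed at 77 genes. The following values are log2 differences between the mutants at 22 °C minus those at 27 °C. They were negative at NAS2 (−2.51), MAM1 (−1.89), RLP6 (−1.62), ESM1 (−1.38), HIPP21 (−1.37) and CRK18 (−1.25), and positive at AT2G15020 (2.27), MLP423 (1.72), AT4G07820 (1.63), CSLG3 (1.19), AT3G05600 (1.19) and AT5G44417 (1.09). NAS2, ESM1, CSLG3 and AT5G44417 kept their call without each of the 12 libraries in turn, and the others lost it without at least 1 of them. HIPP21, CRK18, AT3G05600 and MLP423 also lost it with only the 12 compared libraries in the fit.

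The difference between the mutants was compared in the same way between 7 and 2 days at 22 °C, and it differed at 3235 genes. As 7 days minus 2 days, the log2 values were negative at AT4G33610 (−4.99), AT1G55990 (−4.91), the suberin precursor transporter ABCG6 (−4.72), PELPK2 (−4.62), the suberin acyltransferase GPAT5 (−4.40) and AT5G08250 (−4.16). They were positive at the marneral synthase gene MRN1 (3.24), the lipid desaturase gene ADS4 (2.49), the beta-galactosidase gene BGAL7 (1.89), AT1G27020 (1.78), AT1G02620 (1.71) and the serine acetyltransferase gene SERAT3;2 (1.59). These 12 kept their call without each of the 12 libraries in turn. MRN1 was 2.40 without replicate 1 of pif4-2 at 7 days, and its call was lost in both alternative tests on recovered reads, at 2.52 with edgeR (adjusted p = 0.38) and 2.33 with DESeq2 (adjusted p = 0.1), and with only the 12 compared libraries in the limma fit (3.24, adjusted p = 0.061).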

How the results depend on the processing

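The count of 6780 genes was 6518 to 9361 under a pseudocount of 8, no filter, a minimum of 50, TMM factors, the replicate block (7556), edgeR (7124), DESeq2 (7070) and quality weights, and 5074 to 7163 without each library in turn. It was 3702 with only the 6 libraries in the fit and 8314 with the 5 that exclude replicate 3 of pif4-2. The 77 genes that differed between temperatures became 201 with the replicate block, 335 with DESeq2, 638 with quality weights, 24 with only the 12 libraries and 18 to 251 without each library. The 3235 genes that differed between ages became 5100 with the replicate block, 7614 with quality weights, 1477 with only the 12 libraries and 1985 to 3849 without each library. The cause was not tested. The PIF4 difference changed sign to 0.0313 with quality weights and to 0.0517 in the fit of 5 libraries, ranged from −0.163 to 0.0517 without each library, the highest without replicate 3 of pif4-2, and was called in none of these. Of the 145 genes named for the comparison of the mutants, 139 kept direction and call with edgeR, 140 with DESeq2 and 106 with only the 6 libraries, where the other 39 missed the threshold. Without replicate 3 of pif4-2, 128 kept direction and call, 16 missed the threshold and 1, PIF4, changed sign.

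Same-numbered libraries of the 2 mutants deviated together weakly, with correlations of 0.02895 to 0.1165 over 3 pairs, and over 18 pairs of 0.02179 to 0.3711 for the temperatures and −0.07348 to 0.325 for the ages. For hda9-1 at 27 °C with pif4-2 at 27 °C, and for hda9-1 at 22 °C with each mutant at 27 °C, all 3 correlations were between 0.1428 and 0.3711. Since others of each comparison lay under 0.1, the numbers were not taken as pairs, although 2 of 3 hda9-1 and 3 of 3 pif4-2 libraries correlated best with their own number. With 3 libraries per group and replicate 3 of pif4-2 apart from its mates, small differences and the share of photosynthesis genes called remain uncertain, and reads in genes that overlap or are near-identical cannot be assigned with certainty. Leaving out the genes that passed the minimum count through 1 mutant only, an alternative chosen after seeing the data, changed the median of the glucosinolate genes to −0.42 and that of the flavonoid genes to −0.44.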
